A study of Mus musculus with 7 samples.

Results

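Ncam2, Dlg2, Il1rapl2, Magi2, Nbea, Mmp16, Plcl1, Plxdc2 and Rora are 9 genes of very long genomic span that are known from neurons. Their transcripts were counted here in sorted blood progenitors of mouse bone marrow. The genes were taken by symbol from the 32285 genes of the count tables, and all 9 were found. They had been chosen by their relation to stem cell markers, to the depth of a cell and to its mitochondrial share. Those relations are therefore given below as descriptions without a test. The rule reads them in each library and label, and earlier results were known when the genes were chosen. Differences between labels were tested over all genes, but are not free of that choice. By its title, the series is about sugar modification of proteins and the choice of blood stem cells to form megakaryocytes. It holds 7 single-cell libraries of LSK cells, that is bone marrow cells without lineage markers that carry the surface proteins Sca-1 and cKit. The mice had the mixed background 129S1/C57Bl/6, 3 libraries carry the genotype B4-/- and are called knockout-labelled here, and 4 carry the background alone and are called WT-labelled. The product of B4galt1 is a galactosyltransferase of the Golgi. The labels give no age, sex or treatment and do not say whether each library came from a separate animal, so p-values measure the spread between these libraries, which may be technical.

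Most of the span of such genes is intron. Transcription across them takes long, and unspliced precursor RNA can be a large part of their transcripts. In neurons their products sit mostly at the cell surface or under the synapse. Blood stem cells are rare, mostly quiescent cells with little RNA, and cells committed to the granulocyte and monocyte lineage contain more.

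The genes fall into groups by what their products do. Ncam2 (chr16:81200697-81626828, plus strand) encodes a cell adhesion molecule of the immunoglobulin superfamily. Dlg2 (chr7:90476672-92449247, plus strand) and Magi2 (chr5:19227036-20704792, plus strand) encode PDZ-domain scaffold proteins of the synapse. Il1rapl2 (chrX:137570608-138846946, plus strand) encodes a membrane protein of the interleukin-1 receptor family. Plxdc2 (chr2:16356304-16755839, plus strand) encodes a transmembrane protein with a plexin domain. Mmp16 (chr4:17852893-18119145, plus strand) encodes a membrane-bound matrix metalloproteinase. Plcl1 (chr1:55405921-55754285, plus strand) encodes a phospholipase C-like protein without lipase activity. Nbea (chr3:55625195-56183701, minus strand) encodes neurobeachin, a protein of membrane traffic. Rora (chr9:68653786-69388246, plus strand) encodes a nuclear receptor known from the circadian clock and from lymphoid cells. Coordinates are those of GENCODE M21 on GRCm38. The spans ran from 266.3 kb for Mmp16 to 1973 kb for Dlg2, against a median of 12.268 kb over all matched genes, and exons covered between 0.368% (Il1rapl2) and 5.62% (Nbea) of the span. Whether reads in introns were counted is not given in the sources used here. Other annotated genes overlap Dlg2, Il1rapl2, Magi2, Nbea and Rora, among them the protein-coding genes Tex13a (within Il1rapl2) and Mab21l1 (within Nbea), both on the opposite strand. Reads of overlapping genes on the same strand cannot be told apart.

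The 250 bases before the start of 5 of these genes are shown as starts of genes whose levels moved together across cells. They come from RefSeq on GRCm38.p6, which gave a window for 7 of the 9 genes (10 windows, since Magi2 and Dlg2 have several), and capitals mark CpG dinucleotides.
Ncam2 promoter, chr16:81200447-81200696, plus strand: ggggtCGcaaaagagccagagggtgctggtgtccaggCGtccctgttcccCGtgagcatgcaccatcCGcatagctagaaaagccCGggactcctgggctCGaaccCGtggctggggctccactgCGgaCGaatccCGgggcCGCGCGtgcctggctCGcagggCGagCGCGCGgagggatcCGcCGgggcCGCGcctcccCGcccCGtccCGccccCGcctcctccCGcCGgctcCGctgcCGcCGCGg
Nbea promoter, chr3:56183702-56183951, minus strand: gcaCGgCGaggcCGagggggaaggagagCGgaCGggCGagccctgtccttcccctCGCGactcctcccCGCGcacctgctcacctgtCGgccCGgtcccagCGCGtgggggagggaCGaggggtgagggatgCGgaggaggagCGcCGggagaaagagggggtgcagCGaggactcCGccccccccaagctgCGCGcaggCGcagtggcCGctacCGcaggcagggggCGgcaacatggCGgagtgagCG
Rora promoter, chr9:68653536-68653785, plus strand: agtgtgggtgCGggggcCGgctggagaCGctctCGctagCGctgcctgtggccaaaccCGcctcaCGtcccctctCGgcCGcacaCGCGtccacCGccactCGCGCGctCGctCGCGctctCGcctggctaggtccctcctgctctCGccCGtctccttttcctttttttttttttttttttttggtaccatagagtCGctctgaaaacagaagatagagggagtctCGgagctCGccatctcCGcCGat
Plcl1 promoter, chr1:55405696-55405945, plus strand: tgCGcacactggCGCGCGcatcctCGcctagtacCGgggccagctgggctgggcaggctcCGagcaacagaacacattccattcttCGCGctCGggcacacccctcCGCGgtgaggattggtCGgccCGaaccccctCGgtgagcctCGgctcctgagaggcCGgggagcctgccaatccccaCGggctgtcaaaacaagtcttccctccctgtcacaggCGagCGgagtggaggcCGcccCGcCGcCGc
Dlg2 promoter, chr7:91090536-91090785, plus strand: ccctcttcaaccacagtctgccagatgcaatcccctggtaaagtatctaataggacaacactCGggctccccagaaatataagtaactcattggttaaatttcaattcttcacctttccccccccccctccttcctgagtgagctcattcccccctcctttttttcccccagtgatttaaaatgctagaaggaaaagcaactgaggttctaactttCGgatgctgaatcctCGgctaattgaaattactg
The windows of Ncam2, Nbea, Rora and Plcl1 held 32, 28, 26 and 24 CpG, the window of Il1rapl2 held 14, and the first window of Magi2 held 29. The median over all promoters was 6. The 3 windows of Dlg2 and the second window of Magi2, all at starts inside the gene, held 3, 1, 2 and 3 CpG, and the window at the first start of Dlg2 was not analysed here. Motifs of 5 factor families were searched on both strands. The letters GATAA stood for GATA factors and were present in 22.6% of all windows of this length. The letters GGAAGT stood for ETS factors (19.7% of windows). The letters TGTGGT stood for RUNX factors (14%), and the letters CAGCTG for the E-box (13%). The letters AGGTCA stood for the element of ROR receptors (14%). None was found in the windows of Ncam2, Nbea, Rora and Il1rapl2. Plcl1 held an E-box, the first window of Magi2 a RUNX motif and an E-box, and the windows of Dlg2 a RUNX or a GATA motif each.

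Libraries held between 14970791 and 89747946 UMIs, and between 1172 and 8862 barcodes were kept as cells (at least 1000 UMIs and 500 genes, with no more than 10% mitochondrial UMIs). The barcodes fell into 2 lists of sequences. List A holds knockout-labelled replicates 1 and 2 and WT-labelled replicates 1, 2 and 3, and list B holds knockout-labelled replicate 3 and WT-labelled replicate 4. Barcodes kept made up 32.4% to 49.9% of each library of list A, and 98.3% and 96.2% of the 2 libraries of list B. Library pairs shared at most 88 barcodes. B4galt1 was at 51.3, 55.6 and 27.4 CPM (the UMI count of a gene scaled to library size) in the knockout-labelled libraries and at 56.5, 69.2, 56.7 and 34.8 CPM in the WT-labelled ones, so the ranges of the labels overlapped over all libraries. Within list A both knockout-labelled values lay below the 3 WT-labelled ones, and within list B the knockout-labelled value lay below the WT-labelled one. The part of the gene that was deleted is not given in the sources used here. Xist was high in knockout-labelled replicates 1 and 2 and in WT-labelled replicates 1 and 2, and Y-linked genes in the other 3 libraries, so both labels held both sexes. Kit (mean 215.9 CPM) and Ly6a (31.3 CPM), the genes of the sorted proteins, were detected in all libraries. The 7 measured lineage genes that the sort should remove summed to at most 31.4 CPM, mostly Itgam. A list of 8 neuronal genes summed to 7.99 to 14.3 CPM in the knockout-labelled and 8.85 to 23.5 CPM in the WT-labelled libraries, mostly Elavl4, and Stmn2 was at 0. The 8 glial and Schwann cell genes summed to 41.1 to 101.8 CPM, of which Mbp alone had a mean of 66.9 CPM and no library exceeded 6.54 CPM without it.

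All 9 genes were higher in cells with more stem markers. Each cell was thinned to 3000 UMIs and the markers with a UMI were counted among 12 genes known from blood stem cells, such as Hlf, Mecom, Mllt3, Procr and Fgd5. The summed level of the 9 genes in cells with 0 markers was 22.3, 42.0 and 39.0 CPM in knockout-labelled replicates 1 to 3. In cells with 5 or more markers it was 1283, 2807 and 751.0 CPM in the same libraries. In WT-labelled replicates 1 to 4 it was 51.1, 43.7, 61.9 and 60.6 CPM at 0 markers and 1290, 2066, 1667 and 867.6 CPM at 5 or more. The sum rose at every step of marker number in 7 of 7 libraries, by 14.3-fold to 66.8-fold from end to end. Each gene by itself was higher at 5 or more markers than at 0 in 7 of 7 libraries. Dlg2, Mmp16, Plcl1, Plxdc2 and Rora rose at every step in all 7, Il1rapl2 and Nbea in 6, and Ncam2 and Magi2 in 4. The share of cells with at least 2 of 6 granulocyte-monocyte markers fell over the same steps, from between 72.0% and 91.8% to between 14.6% and 32.1% in the knockout-labelled libraries and from between 41.0% and 53.7% to between 3.01% and 13.1% in the WT-labelled ones. The median depth fell too, from between 10179 and 21301 UMIs at 0 markers to between 4874 and 8090 UMIs at 5 or more. Their part in the gradient was not tested.

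**Figure D1:**
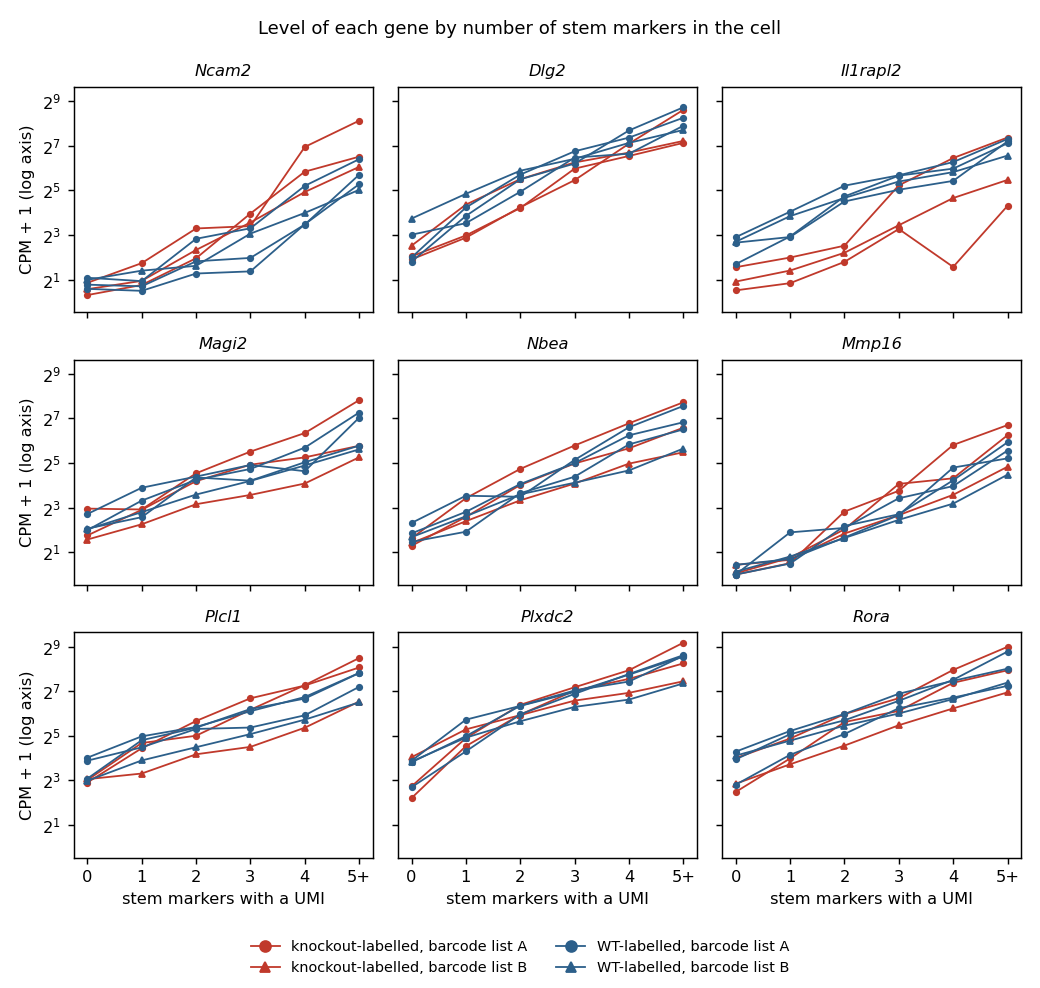
Level of each gene in CPM + 1 (log axis) against the number of the 12 stem markers with a UMI in a cell thinned to 3000 UMIs. Each line is 1 library, red for knockout-labelled and blue for WT-labelled, with circles for barcode list A and triangles for list B. In all 9 panels each line ends higher at 5 or more markers than at 0, with dips between in some libraries, such as Il1rapl2 in knockout-labelled replicate 1 (8.61 CPM at 3 markers, 1.96 at 4 and 18.7 at 5 or more).

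Cells with 4 or more of the 12 markers are called stem-marked here, and all other thinned cells are called other cells. Stem-marked cells numbered 217 to 1703 per library. They made up 10.8%, 13.9% and 16.45% of the cells in the knockout-labelled libraries and 21.25%, 27.75%, 22.9% and 19.6% in the WT-labelled ones, without overlap. The cut divides a range, not 2 cell types: 128 to 939 cells per library sat at exactly 4 markers and 215 to 1384 at 3. Stem-marked cells held a median of 0 to 1 granulocyte-monocyte marker and 0 to 1 lymphoid marker.

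The adhesion gene Ncam2 had the steepest contrast. Its level in stem-marked cells over that in other cells was 39.4-fold, 48.0-fold and 14.8-fold in the knockout-labelled libraries and 15.9-fold, 20.7-fold, 12.2-fold and 8.61-fold in the WT-labelled ones. The protease gene Mmp16 followed with 22.2-fold, 27.5-fold and 10.5-fold, and 16.4-fold, 13.6-fold, 6.83-fold and 8.83-fold. Both genes thus had their largest contrast in knockout-labelled replicate 2, and their smallest in a WT-labelled library.

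Nbea, the membrane traffic gene, had a median contrast of 8.55-fold (4.52-fold to 10.9-fold over the 7 libraries). For the receptor family gene Il1rapl2 the median was 5.35-fold (3.80-fold to 17.7-fold). The scaffold genes Dlg2 and Magi2 had medians of 5.12-fold (4.15-fold to 20.6-fold) and 4.70-fold (3.77-fold to 9.67-fold). Rora, the nuclear receptor gene, had a median of 5.40-fold (3.44-fold to 11.6-fold), Plxdc2 of 4.30-fold (3.21-fold to 9.52-fold) and Plcl1 of 3.97-fold (3.30-fold to 9.55-fold). No library had a contrast under 1 for any of the 9 genes. Some of the 12 markers have long genes themselves, so cells were also split by the 6 markers of short span alone, such as Procr, Hoxb5 and Slamf1. All 9 contrasts stayed above 1 in 7 of 7 libraries, with medians of 3.26-fold (Plxdc2 and Plcl1) to 7.85-fold (Ncam2). They also stayed above 1 in 7 of 7 libraries against the summed counts of other genes of at least 200 kb, without the stem markers. Medians then ran from 3.35-fold (Plxdc2) to 12.7-fold (Ncam2).

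In single cells at 3000 UMIs the genes were seen in a minority of stem-marked cells. An Ncam2 UMI was present in 4.03% to 15.2% of stem-marked cells over the libraries, against 0.387% to 1.11% of other cells. For Plxdc2 the shares were 30.9% to 48.4% against 9.01% to 15.9%, and for Rora 22.8% to 47.9% against 5.70% to 13.9%. The share in stem-marked cells was the higher one in 7 of 7 libraries for each of the 9 genes. Free RNA in the droplets was gauged in cells with at least 2 granulocyte-monocyte markers and no stem marker, 3439 cells over the 7 libraries with a median of 12145 to 22962 UMIs before thinning, against 5276 to 8583 in stem-marked cells. There, 3 cells held an Ncam2 UMI (0.0872%, exact 95% binomial interval 0.0180% to 0.255%), and 0 cells an Mmp16 UMI, which allows a share of up to 0.0872%. The highest share there was that of Plcl1, 2.47% (1.98% to 3.05%). These intervals cover counting error only.

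The genes also occurred together. Of the 9 genes, a stem-marked cell held a UMI of 1.39 to 2.53 on average, and another cell 0.347 to 0.660. Between 19.7% and 42.0% of stem-marked cells held 3 or more of them, against 2.16% to 5.62% of other cells, and single cells reached 8. Within stem-marked cells, those with a Dlg2 UMI held 1.57 to 3.55 of the other 8 genes on average and those without held 0.929 to 1.48, with the first value higher in 7 of 7 libraries. Cells with a Dlg2 UMI also held more stem markers (means of 4.69 to 4.92 against 4.43 to 4.63) and were shallower (medians of 4485 to 7603 against 5903 to 9162 UMIs) in 7 of 7 libraries, and the part of these in the co-occurrence was not tested. For each of the other 8 genes, cells with a UMI held more of the remaining genes than cells without. That was so in every library with at least 20 cells that held one (5 to 7 libraries per gene). In these libraries they also held more stem markers and were shallower, except in knockout-labelled replicate 1. There, cells with a Magi2 UMI had fewer stem markers (means of 4.458 against 4.505) and were deeper (medians of 6619 against 6560 UMIs). Cells with an Nbea UMI were deeper there too (6822 against 6560 UMIs).

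Long genes as a class were higher in stem-marked cells, by far less than these 9. Among genes with a mean of at least 1 CPM, the median log2 ratio of stem-marked over other cells was -0.02 for 6113 genes under 20 kb, 0.15 for 20 to 100 kb, 0.32 for 100 to 200 kb, 0.40 for 200 to 500 kb and 0.62 for 120 genes above 500 kb. With cells split by the short-span markers those medians were 0.04, 0.13, 0.23, 0.33 and 0.50. With granulocyte-monocyte-marked cells left out of the other cells they were -0.03, 0.07, 0.16, 0.23 and 0.37. Log2 ratios of the 9 genes ran from 2.32 (Plxdc2) to 4.25 (Ncam2). Of the 414 other genes of at least the span of Mmp16, 16 (3.87%) reached 2.32, and 82 were below 0. The 5 highest of them were Shisa9, 9530026P05Rik, Ldb2, Rarb and Nav3, named here after their values were seen, and Il1rapl1, the closest relative of Il1rapl2, was the sixth at 2.69. Other genes of at least 200 kb, without the stem markers, took 3.76% to 12.5% of UMIs in stem-marked cells and 3.22% to 9.65% in other cells. That load was lower in the 2 libraries of list B (3.76% and 4.06% in stem-marked cells) than in the 5 of list A (8.10% to 12.5%).

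**Figure D2:**
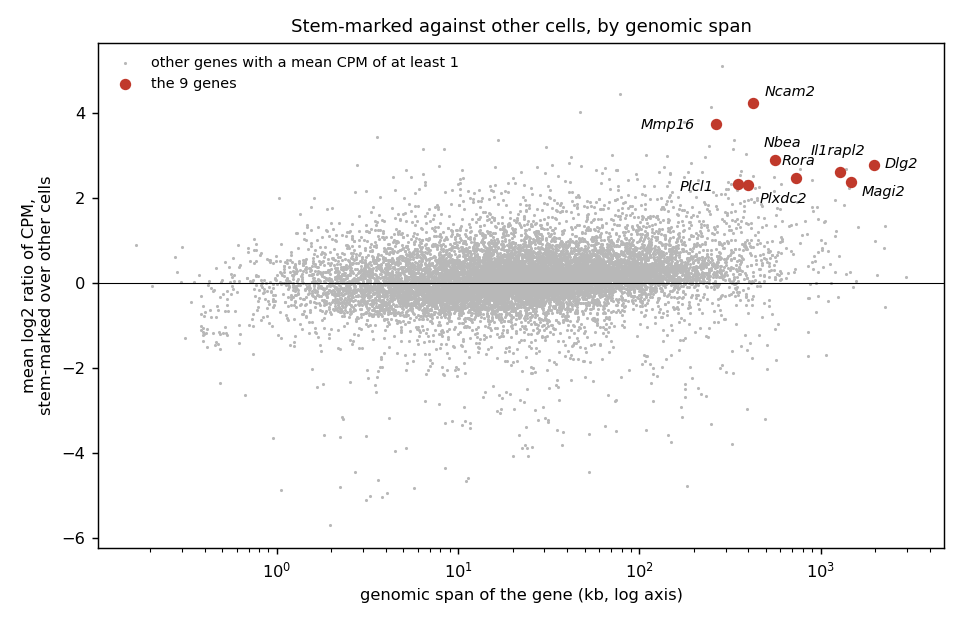
Mean over 7 libraries of the log2 ratio of CPM in stem-marked over other cells, against genomic span in kb (log axis), for genes averaging 1 CPM or more. The 9 genes in red lie between 2.32 and 4.25, above the median of 0.62 of other genes over 500 kb.

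Against cells of single lineages the order of median levels was the same for most of the 9 genes. Cells outside the stem-marked ones were sorted by whether they held at least 2 markers of just 1 lineage. Ncam2 had a median over libraries of 43.7 CPM in stem-marked cells, 7.41 CPM in cells with no lineage marked, 1.75 CPM in lymphoid-primed-marked cells and 1.46 CPM in granulocyte-monocyte-marked cells. Mmp16 stepped down likewise from 30.1 to 6.40, 1.03 and 0.621 CPM. The ranges of the last 2 groups overlapped for both genes. Their order was opposite for Ncam2 in WT-labelled replicates 1 (0.303 and 2.625 CPM), 2 (0.839 and 1.46 CPM) and 4 (1.09 and 1.97 CPM). For Mmp16 it was opposite in knockout-labelled replicates 1 (1.03 and 1.24 CPM) and 3 (0.417 and 0.621 CPM). It was opposite too in WT-labelled replicate 4 (0.727 and 0.820 CPM). Some of these values rest on few UMIs, such as 1 of Ncam2 in the lymphoid-primed-marked cells of WT-labelled replicate 1.

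Dlg2, Magi2, Nbea, Plcl1 and Rora had the same order of medians. For Dlg2 the lowest pair was close (10.8 CPM in lymphoid-primed-marked and 10.35 CPM in granulocyte-monocyte-marked cells), with overlapping ranges and the opposite order in WT-labelled replicate 4 (19.9 and 26.0 CPM). In that library the order was also opposite for Magi2 (5.21 and 6.12 CPM), Nbea (4.85 and 4.98 CPM) and Plcl1 (13.6 and 14.4 CPM). The same held for Nbea in WT-labelled replicate 1 (3.03 and 3.61 CPM) and Magi2 in knockout-labelled replicate 2 (7.85 and 7.92 CPM). Ranges of the pair overlapped for Magi2, Nbea, Plcl1 and Rora too. For Plxdc2 that pair was at 28.5 and 30.6 CPM, again with overlapping ranges. Il1rapl2 departed from the others: its median was 21.2 CPM in lymphoid-primed-marked cells, close to the 27.9 CPM of cells with no lineage marked, and 1.98 CPM in granulocyte-monocyte-marked cells. Megakaryocyte-marked cells reached 20 only in the 2 libraries of list B. In knockout-labelled replicate 3 Dlg2 was higher in them than in the stem-marked cells of the same library (183.8 and 120.2 CPM), and in WT-labelled replicate 4 it was lower (139.7 and 167.4 CPM). Ncam2 was at 7.30 and 0.675 CPM in the megakaryocyte-marked cells of these libraries. Erythroid-marked cells of the same 2 libraries, 32 and 97 cells, held 0 UMIs of Ncam2.

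Compared with cells of no marked lineage alone, the contrast of stem-marked cells was smaller but above 1 in 7 of 7 libraries for every gene. Its median was 7.85-fold for Ncam2 and 4.72-fold for Mmp16, and between 2.00-fold (Plxdc2) and 3.23-fold (Il1rapl2) for the other 7 genes.

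**Figure D3:**
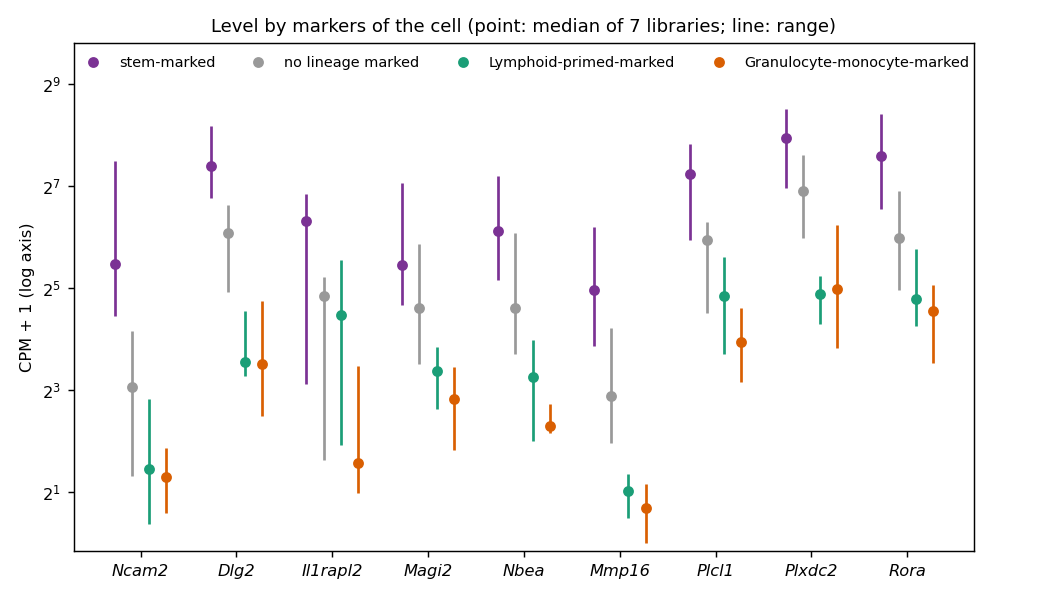
Level of each gene in CPM + 1 (log axis) in stem-marked cells, cells with no lineage marked, lymphoid-primed-marked and granulocyte-monocyte-marked cells. Points are medians of 7 libraries and lines run from the lowest to the highest library; stem-marked cells have the highest median of the 4 classes for all 9 genes.

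Taken over all kept cells, the shallowest held more UMIs of these genes per cell than the deepest in most libraries. Kept cells were split into 4 equal parts by depth within each library. The summed level of the 9 genes was higher in the shallowest part than in the deepest in 7 of 7 libraries, by 3.20-fold to 21.3-fold as CPM. Counted per cell, the shallowest part held 2.57 to 6.01 UMIs of the 9 genes and the deepest 1.03 to 5.09. WT-labelled replicate 4 was the one library where the count per cell was higher in the deepest part (3.03 against 2.57 UMIs). The share of stem-marked cells fell from between 21.7% and 34.0% to between 0.521% and 12.97% over the same parts, so depth and marker number moved together. Stem-marked and other cells were also each split at their median depth. Stem-marked cells of the knockout-labelled libraries held 6.69, 10.88 and 4.36 UMIs of the 9 genes per cell below it and 7.13, 10.92 and 5.07 above. Those of the WT-labelled ones held 7.08, 11.43, 11.45 and 4.70 below and 5.60, 13.03, 11.42 and 5.76 above. Other cells of the knockout-labelled libraries held 1.99, 2.175 and 1.52 below and 1.03, 1.42 and 1.49 above. Those of the WT-labelled ones held 1.90, 2.925, 3.26 and 1.48 below and 2.335, 3.14, 3.81 and 2.14 above. Within 3 depth classes of each library the contrast between stem-marked and other cells stayed above 1 for the sum of the 9 genes. It was smaller in the lowest and middle classes of each library than without depth classes. Without depth classes the sum of the 9 genes had contrasts of 10.4-fold, 11.6-fold and 4.69-fold in the knockout-labelled libraries and 4.73-fold, 5.84-fold, 4.25-fold and 3.96-fold in the WT-labelled ones. In the lowest class, which held 232 of 317 stem-marked cells in knockout-labelled replicate 1 and 148 of 217 in replicate 2, those 2 libraries had 3.19-fold and 5.01-fold. Over all libraries it was 2.91-fold to 5.01-fold in the lowest class, 2.85-fold to 6.16-fold in the middle one and 2.76-fold to 17.7-fold in the highest, above 1 in 7 of 7 libraries each time. Single genes were also above 1 in 7 of 7 libraries in the lowest and middle classes. In the highest class Ncam2, Il1rapl2 and Mmp16 were above 1 in 6 of 7 libraries. The exceptions were knockout-labelled replicate 1, with 0 UMIs of Ncam2 and Il1rapl2 in 10 stem-marked cells, and WT-labelled replicate 3, with 1 UMI of Mmp16 in 56.

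The mitochondrial share moved with these genes as well. Over 4 equal parts by mitochondrial share, the lowest part held 0.319 to 1.10 times the summed level of the highest part, with a median of 0.416. Knockout-labelled replicate 1 was the one library above 1. Split at the median share instead, the ratio of cells below over cells above it was 0.644 to 1.10 (median 0.917) inside stem-marked cells and 0.469 to 0.967 (median 0.644) inside other cells. Barcodes above the limit of 10%, which entered no other comparison, numbered 688 to 1344 in the libraries of list A and 48 and 173 in those of list B. Their median depth was 1549 to 3069 UMIs. In list A the summed level of the 9 genes among non-mitochondrial UMIs was 2.03-fold to 3.98-fold that of the kept cells, higher in 5 of 5 libraries. In knockout-labelled replicate 3, with its 48 such barcodes, it was 0.512-fold. Over all 7 libraries the medians of single genes ran from 1.94-fold (Ncam2) to 2.97-fold (Mmp16), and each gene was higher in 5 to 7 of 7 libraries. Depth differed between the 2 sets of barcodes, and its part in this was not tested.

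Between the labels, no member of the group passed the test in the sums of all kept cells. The summed UMI counts of each library were compared with edgeR's quasi-likelihood test, with the barcode list as a covariate and Benjamini-Hochberg adjustment over all genes tested at a threshold of 0.05. It called 0 of the 9 genes, where 1.07% of the 15149 genes tested were called. At an unadjusted edgeR p under 0.05 were 2 of the 9 genes, and 2861 of the 15149. Levels below are CPM scaled by the TMM method. Il1rapl2 was at 1.80, 17.8 and 7.49 CPM in the knockout-labelled libraries and at 25.4, 43.8, 34.0 and 30.04 CPM in the WT-labelled ones. The groups did not overlap, Il1rapl2 is X-linked and both labels held both sexes, and the log2 fold change was -1.92 ± 0.78 (standard error; edgeR adjusted p = 0.277). Dlg2 was at 16.0, 29.4 and 45.8 CPM against 47.6, 83.2, 74.4 and 67.6 CPM, and the groups again lay apart; the log2 fold change was -1.29 ± 0.31 (edgeR adjusted p = 0.105). Groups did not overlap in 5.73% of the genes tested. In the 5 libraries of list A alone Dlg2 passed the test (log2 fold change -1.63 ± 0.32, edgeR adjusted p = 0.0356), where 2.44% of the genes were called. DESeq2 called Dlg2 in all 7 libraries, and it called more genes in total than edgeR did. Leaving out either library of list B leaves the list term to absorb the other, so it gives the list A comparison again. The other 7 genes overlapped between the labels, with log2 fold changes of -0.73 (Rora) to 0.50 (Ncam2). The share of stem-marked cells was lower in each knockout-labelled library than in each WT-labelled one (10.8% to 16.45% against 19.6% to 27.75%), and its part in these values was not tested.

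Inside stem-marked cells the direction was not shared. edgeR called 0 of the 9 genes, where 0.0167% of 11947 genes were called. At an unadjusted edgeR p under 0.05 were 2 of the 9 genes, and 540 of the 11947. Ncam2 was at 64.3, 170.5 and 51.2 CPM in the knockout-labelled libraries and at 23.3, 19.1, 52.9 and 26.0 CPM in the WT-labelled ones. WT-labelled replicate 3 reached into the knockout-labelled range, and the log2 fold change was 1.55 ± 0.49 (edgeR adjusted p = 0.915). Mmp16 was at 36.2, 69.2 and 20.6 CPM against 28.4, 31.3, 26.5 and 16.2 CPM, a log2 fold change of 0.67 ± 0.21 (edgeR adjusted p = 0.611). Il1rapl2 was at 7.33, 109.3 and 37.2 CPM against 74.4, 98.0, 88.7 and 84.6 CPM. Here the knockout-labelled libraries lay far apart, the lowest on 18 UMIs, while the WT-labelled ones stayed close together. Nbea (means of 81.0 and 78.1 CPM), Plxdc2 (243.0 and 226.8 CPM), Magi2 (65.4 and 57.2 CPM) and Rora (205.8 and 180.1 CPM) had log2 fold changes of 0.06 to 0.15, under their standard errors of 0.17 to 0.46. Groups did not overlap in 1.68% of the genes tested and in 0 of the 9. DESeq2 called 0 of the 9 as well, while without the filter on low genes edgeR called Mmp16 (log2 fold change 0.66, edgeR adjusted p = 0.0471). Without the filter edgeR called more genes in total than with it. Granulocyte-monocyte-marked cells made up 18.9% to 36.9% of stem-marked cells in the knockout-labelled libraries and 5.41% to 15.6% in the WT-labelled ones, and their part in these values was not tested. Without knockout-labelled replicate 2 the log2 fold changes of Nbea, Plxdc2, Magi2 and Rora were below 0. In list A alone 0 of the 9 were called too, where 0.192% of genes were.

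In the other cells 0 of the 9 genes passed as well, where edgeR called 1.16% of 14885 genes. At an unadjusted edgeR p under 0.05 were 4 of the 9 genes, and 2803 of the 14885. Il1rapl2 was at 1.41, 6.20 and 3.51 CPM in the knockout-labelled libraries and at 14.2, 25.2, 20.5 and 20.9 CPM in the WT-labelled ones. It was the one gene of the 9 whose groups did not overlap here, where 5.82% of genes did not, and its log2 fold change was -2.53 ± 0.49 (edgeR adjusted p = 0.0718). Dlg2 was at 10.4, 10.6 and 33.0 CPM against 27.8, 31.2, 43.5 and 45.4 CPM, with a log2 fold change of -1.31 ± 0.26 (edgeR adjusted p = 0.0559). In list A alone Dlg2 was called (log2 fold change -1.74 ± 0.22, edgeR adjusted p = 0.00479), where 2.94% of genes were. The other cells of the labels differed in kind: between 52.6% and 73.5% of them were granulocyte-monocyte-marked in the knockout-labelled libraries and between 22.7% and 32.4% in the WT-labelled ones. Lymphoid-primed markers went the other way, with at least 2 in 23.4% to 30.5% against 35.4% to 49.6% of cells. DESeq2 called Dlg2, Il1rapl2 and Plcl1 lower. Without the filter on low genes edgeR called Dlg2. Both settings called more genes in total than the main fit. With the filter, edgeR called Il1rapl2 without knockout-labelled replicate 1 (-2.09) or 2 (-3.22). With granulocyte-monocyte-marked cells left out of the other cells, 0 of the 9 genes were called, where 0.341% of genes were. Log2 fold changes were then positive for Ncam2 (1.33 ± 0.51), Plcl1, Plxdc2, Nbea, Mmp16 and Magi2, and that of Il1rapl2 was -1.65 ± 0.70 without passing the test.

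**Figure D4:**
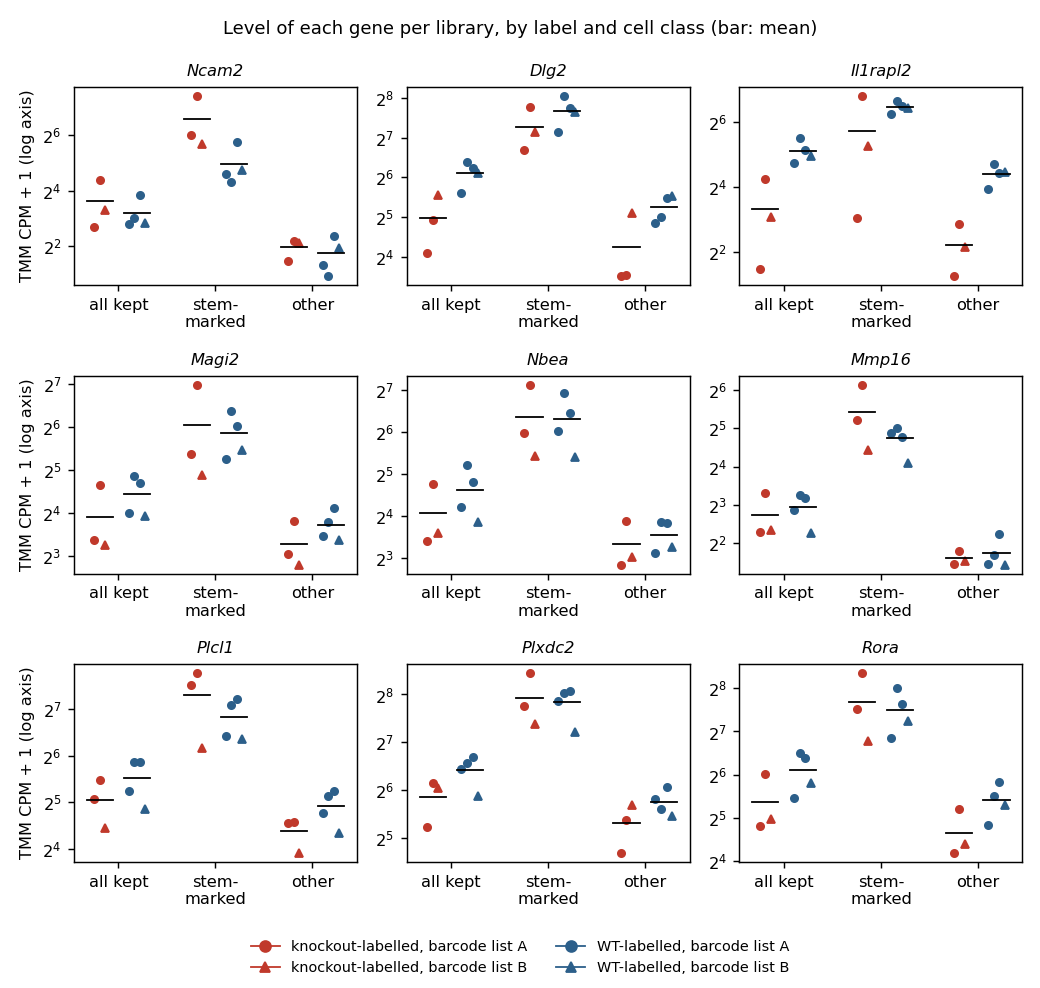
Level of each gene in TMM-scaled CPM + 1 (log axis) in all kept cells, stem-marked cells and other cells, with 1 point per library and a bar at the mean of the 3 knockout-labelled (red) or 4 WT-labelled (blue) libraries. The red and blue points of Il1rapl2 do not overlap in all kept cells and in other cells, and overlap in stem-marked cells.

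With cells of all depths together, the contrast between stem-marked and other cells was larger in the knockout-labelled libraries for 4 of the 9 genes. A fit of both sums of each library, with the library as a block, tested whether the label difference in stem-marked cells differed from that in other cells. It gave Il1rapl2 a log2 difference of 1.42 ± 0.22 (edgeR adjusted p = 0.00539), Ncam2 1.13 ± 0.22 (edgeR adjusted p = 0.00680), Rora 0.90 ± 0.17 (edgeR adjusted p = 0.0132) and Plcl1 0.86 ± 0.15 (edgeR adjusted p = 0.00522). Of all 15107 genes tested 2.34% were called. The other 5 genes had positive values of 0.31 (Nbea) to 0.73 (Dlg2) and did not pass. With the short-span markers 7 of the 9 were called, among them Dlg2, Nbea and Plxdc2. That setting called fewer genes in total than the main fit. DESeq2 called Plxdc2 beside the 4, and its share of all genes for this fit is not given here. The 12 stem markers also had positive values in this fit, 12 of 12, and Hlf, Mecom, Mllt3 and Procr were called, as were 38 of 492 other genes of at least the span of Mmp16, with 9 more called lower. Without the barcode list as a covariate 0 of the 9 were called. Ncam2 was not called without knockout-labelled replicate 2 (0.99) or WT-labelled replicate 3 (0.91), Plcl1 not without knockout-labelled replicate 1 (0.82), and Rora not without knockout-labelled replicate 1 (0.77) or 2 (0.91). Il1rapl2 was called with any 1 library left out. It was not called with stricter cells (at least 3000 UMIs and no more than 5% mitochondrial UMIs). Ncam2 was not called with thinning to 2000 UMIs or with the replicate number as a block. In list A alone 6 of the 9 genes were called (those 4, Mmp16 and Plxdc2), where 14.5% of all genes were.

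Beside these differences, granulocyte-monocyte-marked cells made up 52.6% to 73.5% of the other cells in the knockout-labelled libraries and 22.7% to 32.4% in the WT-labelled ones. With those cells left out, an alternative added after the values had been seen, 0.316% of 14240 genes were called. Among the 9 genes Il1rapl2 stayed positive and was called (0.73 ± 0.14, edgeR adjusted p = 0.00268). Plxdc2 was called in the opposite direction (-0.42 ± 0.08, edgeR adjusted p = 0.00291). Ncam2, Plcl1 and Rora had values of 0.07, 0.0031 and 0.21 and were not called, and Dlg2, Magi2, Nbea and Mmp16 were below 0. The cells were left out of the other cells alone. Stem-marked cells kept theirs, 18.9% to 36.9% of them in the knockout-labelled libraries and 5.41% to 15.6% in the WT-labelled ones. The part of this in the values was not tested.

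In the lowest depth class the contrasts of the labels overlapped. For the sum of the 9 genes they were 3.19-fold, 5.01-fold and 2.91-fold in the knockout-labelled libraries and 3.45-fold, 3.78-fold, 3.83-fold and 3.24-fold in the WT-labelled ones. Il1rapl2 had 1.58-fold (on 14 UMIs in stem-marked cells), 4.13-fold and 4.89-fold against 2.91-fold to 3.84-fold. Plcl1 had 2.95-fold, 6.00-fold and 3.35-fold against 2.58-fold to 3.96-fold. The ranges of Ncam2 (7.91-fold to 28.6-fold against 6.32-fold to 14.35-fold) and Rora (2.94-fold to 4.54-fold against 2.09-fold to 3.54-fold) overlapped as well. In the middle class Il1rapl2 had 4.335-fold, 17.3-fold and 7.19-fold (4, 41 and 60 UMIs in stem-marked cells) against 2.54-fold to 4.05-fold, without overlap. The sum, Ncam2, Plcl1 and Rora overlapped there. In the highest class Rora lay apart (6.67-fold to 12.6-fold against 2.12-fold to 5.11-fold), and the sum, Ncam2, Il1rapl2 and Plcl1 overlapped. That class held 10 and 8 stem-marked cells in knockout-labelled replicates 1 and 2. The label difference within depth classes was not tested.

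**Figure D5:**
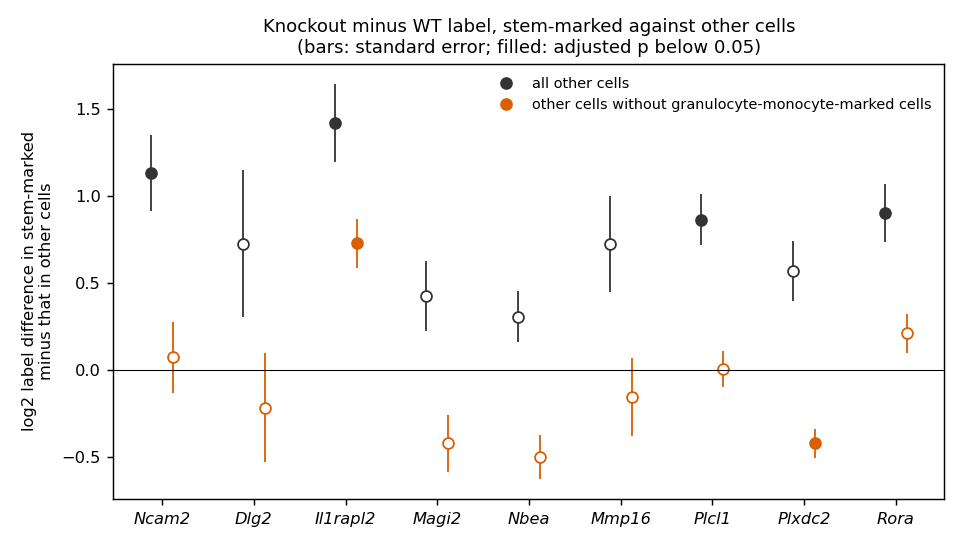
Log2 difference between labels (knockout minus WT) in stem-marked cells minus that in other cells, per gene, with bars for the standard error and filled points for an adjusted p below 0.05. With all other cells (black) the 9 values lie between 0.31 and 1.42; without granulocyte-monocyte-marked cells (orange) they lie between -0.50 and 0.73.

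Lists of genes related to these 9 had median contrasts between stem-marked and other cells below those of the 9, whose median was 2.63 on the log2 scale. Of 18 closest relatives, 15 had a mean of at least 1 CPM, with a median log2 ratio of stem-marked over other cells of 0.49, and 3 were above 1. The most abundant were Dlg1 (0.49), Lrba, a relative of Nbea (0.62), and Plcl2 (0.35). Among 40 other long genes known from neurons, 24 had that level and a median of 0.49, with 8 above 1. Fhit had a log2 ratio of 1.32 and Sox5, a transcription factor gene, of 1.80, while the abundant genes Gphn and Immp2l had 0.34 and 0.52. The 20 long genes known from blood cells had a median of 0.40, and their most abundant members Etv6, Msi2 and Lrmda had 0.43, 0.88 and 0.38. For 20 post-synaptic scaffold genes the median was 0.49 over 13 genes, with Shank3 highest at 1.75, and for 14 clock and nuclear receptor genes around Rora it was 0.39 over 12 genes, with Npas2 highest at 0.99. The median over all genes of that level was 0.11.

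In the label comparison of all kept cells, 1.07% of all genes tested were called. Of 34 tested long genes known from neurons 3 were called, all lower in the knockout-labelled libraries. These were Sox5 (log2 fold change -1.31 ± 0.19, edgeR adjusted p = 0.0240), Fam155a and Ctnnd2, the last 2 at means of 5.79 and 4.91 CPM. Of the 14 post-synaptic scaffold genes tested, Homer2 was called higher and the glutamate receptor gene Gria2 lower, at means of 1.40 and 1.28 CPM. No closest relative, no long gene known from blood cells and no clock gene was called there (0 of 17, 0 of 20 and 0 of 14). At an unadjusted edgeR p under 0.05 these were 4, 9 and 2 genes, and 2861 of all 15149 genes tested were. Median log2 fold changes were -0.53 for the 9 genes, -0.30 for the relatives, -0.35 for the other neuronal genes, -0.35 for the long blood genes and -0.26 for all 486 other genes of at least the span of Mmp16, against 0.01 for all genes tested.

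The genes whose level followed the mean of the 9 most closely were Itsn1, Sgms1, Tbxas1, Epb41 and Nceh1. Likeness was Pearson's r of log2(CPM + 1) over 42 points, the 6 bins of stem marker number in 7 libraries centred within each library, among 7145 genes with a mean of at least 20 CPM outside the 9 genes and the marker lists. The values of r were 0.989, 0.986, 0.986, 0.986 and 0.982. The points share libraries, depth and the markers that define the bins, so these values describe the gradient. The 5 genes have spans of 101.6 to 267.0 kb and log2 ratios of 0.84 (Epb41) to 2.17 (Itsn1), the latter a gene of endocytic scaffolding. By the same measure each of the 9 genes had an r of 0.946 (Ncam2 and Il1rapl2) to 0.985 (Nbea and Rora) with the mean of the other 8.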

How the data were processed

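Bone marrow LSK cells of 3 knockout-labelled and 4 WT-labelled libraries were measured by droplet RNA sequencing. The deposited values are raw UMI counts for each barcode, made by the authors with Cell Ranger 7.0.0 per the file headers. Per the submitters' processing notes, Cell Ranger 7.0.0, Seurat 4.4.0 and build mm10 were used. Per the labels' protocols the kit was 10X Single Cell 3′ v2 for every library, while the barcodes came from 2 lists. Counting of intronic reads and the rule for calling cells are not given in the sources used here. The 9 genes and all gene lists were chosen with earlier results of these data known.

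Barcodes were kept with at least 1000 UMIs and 500 genes, and no more than 10% mitochondrial UMIs. For marker counts cells were thinned to 3000 UMIs, and shallower cells were left out (45 to 169 per library). The number of markers that makes a cell stem-marked was the smallest that left at most 20% of cells, averaged over libraries, and at least 20 per library. Counts were summed per library and class and tested with edgeR 4.0.16 (quasi-likelihood, TMM, filterByExpr) with the barcode list and the label as terms. The fit of the contrast between classes used 14 sums, with the library as a block and class by list and class by label terms. A gene was called at a Benjamini-Hochberg adjusted p below 0.05. Standard errors are the log2 fold change divided by the square root of F. Levels in CPM use the sum of a class, and log2 ratios add 0.5 UMIs. Depth sets the precision of each value, and classes of list A libraries hold the fewest cells.

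Besides the 9 genes, the text names from each list the 3 genes of highest mean CPM and each called gene, and the 5 genes most alike, except where an item is not reported here. Alternatives were DESeq2 1.42.0, no gene filter, no covariate, list A alone, the replicate number as a block, each library left out, stricter cells, thinning to 2000 UMIs, short-span markers and removal of high doublet scores. Scrublet (scanpy 1.11.5) called at most 5 cells per library and so did not work, and the highest scores were removed instead (25 to 653 cells). Same-numbered libraries of the labels had correlations of deviations of 0.491, 0.679 and -0.335, so the numbers were not taken to pair them. On simulated counts for the comparison of all kept cells (14876 genes), the fit recovered 70 of 100 genes changed by a log2 of 1 and 100 of 100 changed by 2, with 7 false calls.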

Additional observations from a re-analysis of the deposited data

Results flagged for a closer look

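Among the 4 WT-labelled libraries, the Ncam2 level in all kept cells was 13.5 CPM in replicate 3 and 6.01 to 7.12 CPM in the other 3, a gap large against the range of the group. The contrast of Plcl1 between stem-marked and other cells was 3.30-fold in WT-labelled replicate 1 and 3.88-fold to 3.97-fold in the other 3. In all, 36 groups of libraries were examined in this way, and chance alone marks about 1 in 20.

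The label difference in stem-marked cells differed from that in other cells for Il1rapl2 (1.42 on the log2 scale), Ncam2 (1.13), Rora (0.90) and Plcl1 (0.86) by the edgeR fit of both classes. The share of granulocyte-monocyte-marked cells among the other cells was 52.6% to 73.5% in the knockout-labelled and 22.7% to 32.4% in the WT-labelled libraries. With those cells left out of the other cells alone, the values were 0.73, 0.07, 0.21 and 0.0031, and Il1rapl2 was the one of these 4 genes still called.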

How the results depend on the processing

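The number of genes called in all kept cells (162 with edgeR) was 0 without the barcode list covariate, 547 without a gene filter, 880 with DESeq2, 362 in list A alone and 1 with the replicate block, and 16 to 363 with 1 library left out. In stem-marked cells (2) the same settings gave 0, 111, 24, 22 and 4 with the replicate block, short-span markers gave 5, thinning to 2000 UMIs gave 4, and leaving out 1 library gave 2 to 24. In other cells (172) they gave 0, 724, 879, 420 and 2 with the replicate block, 46 without granulocyte-monocyte-marked cells, and 52 to 417 with 1 library left out. For the difference between the classes (354) they gave 2 without the covariate, 966 without a filter, 2010 in list A, 114 with short-span markers, 45 without granulocyte-monocyte-marked cells, and 34 to 2209 with 1 library left out. The highest counts with 1 library left out come from leaving out a library of list B, which repeats the list A comparison. The replicate block pairs libraries that share only a number. The cause of these changes was not tested.

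Directions of single genes changed as follows, on the log2 scale. With 1 library left out, Mmp16 in all kept cells ran from -0.50 to 0.16 and Ncam2 from -0.17 to 0.89. In stem-marked cells, Plxdc2 ran from -0.070 to 0.34, Nbea ran from -0.30 to 0.36, Magi2 ran from -0.62 to 0.38 and Rora ran from -0.23 to 0.40. In other cells, Nbea ran from -0.62 to 0.027, Mmp16 ran from -0.32 to 0.12 and Ncam2 ran from -0.072 to 0.75. With the replicate block the stem-marked values were -0.13 for Plxdc2, -0.30 for Nbea and -0.15 for Magi2, and with short-span markers -0.41 for Magi2 and -0.23 for Rora. Without granulocyte-monocyte-marked cells the values in other cells were 0.36 for Plcl1, 0.55 for Plxdc2, 0.67 for Nbea, 0.81 for Mmp16 and 0.39 for Magi2. The differences between classes were then -0.42 for Plxdc2, -0.50 for Nbea, -0.16 for Mmp16, -0.42 for Magi2 and -0.22 for Dlg2. The contrast of stem-marked over other cells stayed positive for all 9 genes under each setting tried, with short-span markers giving 3.19 for Ncam2, 2.27 for Nbea and 2.58 for Mmp16, and shares of cells with a UMI giving 1.76 for Magi2 and 2.41 for Nbea. By their UMIs over all kept cells, low counts limit Ncam2, Mmp16 and Magi2 most. The lowest count in the stem-marked cells of a library was that of Il1rapl2, 18 UMIs in knockout-labelled replicate 1.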
